A study of Mus musculus with 9 samples.

Results

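The tubulin mRNAs described here are the transcripts of 10 mouse genes: the α-tubulin genes Tuba1a, Tuba1b and Tuba1c, the β-tubulin genes Tubb2a, Tubb2b, Tubb3, Tubb4b, Tubb5 and Tubb6, and the γ-tubulin gene Tubg1. They were chosen by gene symbol, with earlier results of these data known, and took 20 of the 140658 transcript rows and 10 of the 54325 gene symbols of the table. The data are RIP-seq footprints from N2A cells, an established mouse neuroblastoma line, in which RNA bound by phosphorylated UPF1 (p-UPF1), the activated form of the central factor of nonsense-mediated mRNA decay (NMD), was recovered with an antibody to p-UPF1. Control RNA was recovered with rabbit IgG (rIgG IP), and input RNA was taken without IP, with 3 libraries in each of the groups p-UPF1 IP, rIgG IP and Input. Cells of every group had first been exposed for 2 h to okadaic acid at 200 nM, which blocks protein phosphatases, so no group shows untreated cells. RNA was cut with RNase I, and fragments of 25 to 50 nt were sequenced. All libraries come from 1 cell line in culture, and the labels do not say whether replicates were separate cultures, so p-values measure the spread between these libraries, which may be technical.

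α- and β-tubulin form the heterodimers from which microtubules are built, and γ-tubulin nucleates microtubules at centrosomes and other organizing centres. Vertebrate cells hold several nearly identical α- and β-tubulin genes, of which Tubb3 is the classic neuronal β-tubulin and Tuba1a the main α-tubulin of developing neurons. The amount of α- and β-tubulin mRNA is also under autoregulation: when free tubulin is in excess, TTC5 recognizes the first residues of nascent tubulin on the ribosome and, through SCAPER, brings the CCR4-NOT deadenylase to the mRNA.

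The first 30 bases of the coding sequences of 9 members are shown. Those of the α- and β-tubulin genes hold the codons of the residues recognized in autoregulation. The 30 bases also show how far the genes differ over this stretch alone. They were read from GENCODE M21 transcripts on GRCm38, 5′ to 3′ on the coding strand, and capitals mark the first 12 coding bases (the first 15 in Tubg1). Tubb6 is not shown.
Tuba1a: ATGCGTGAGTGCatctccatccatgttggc
Tuba1b: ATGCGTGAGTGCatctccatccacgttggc
Tuba1c: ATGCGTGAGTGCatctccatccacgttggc
Tubb2a: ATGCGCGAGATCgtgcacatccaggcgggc
Tubb2b: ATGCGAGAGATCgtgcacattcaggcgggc
Tubb3: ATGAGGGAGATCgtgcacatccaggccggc
Tubb4b: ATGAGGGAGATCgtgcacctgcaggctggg
Tubb5: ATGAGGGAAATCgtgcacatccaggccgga
Tubg1: ATGCCGAGAGAAATCatcaccctacagttg

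Tuba1b and Tuba1c did not differ in these 30 bases, and Tuba1a differed from both at 1 base. Among the β-tubulin genes the number of differing bases ran from 2 (Tubb2a against Tubb2b, and Tubb3 against Tubb5) to 6, and Tubg1 differed from each of the other members shown at 19 to 22. In the α-tubulin genes the start lies across the junction of exons 1 and 2, with 3 bases in exon 1: chr15:98951665-98953453 on the minus strand for Tuba1a, chr15:98933169-98934335 on the minus strand for Tuba1b and chr15:99030422-99034120 on the plus strand for Tuba1c, introns included. The β- and γ-tubulin starts lie within exon 1, at chr13:34077900-34077929 (minus, Tubb2a), chr13:34130204-34130233 (minus, Tubb2b), chr8:123411606-123411635 (plus, Tubb3), chr2:25224561-25224590 (minus, Tubb4b), chr17:35838024-35838053 (minus, Tubb5) and chr11:101120194-101120223 (plus, Tubg1). In the most-counted transcript of each of the 10 genes the stop codon lies in the last exon, so that no exon junction follows it. Those transcripts have 4 exons in the α- and β-tubulin genes and 11 in Tubg1, and their 3′ UTRs run from 101 nt in Tuba1c to 1061 nt in Tubb5.

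How far short reads could be assigned to 1 gene differed widely among the members. Of the 35-nt windows of the most-counted transcript, 35 nt being the shortest read that was kept, 76.1% in Tuba1a, 75.0% in Tuba1b and 63.2% in Tuba1c also occur in a transcript of another gene. The sharing is greatest in the coding sequence, where it was 94.4%, 96.9% and 93.6%. For the β-tubulin genes the shares were 54.4% in Tubb2a, 44.3% in Tubb2b and 61.8% in Tubb4b, against 2.02% in Tubb3, 3.17% in Tubb5 and 1.91% in Tubb6. Tubg1 shared 22.0% of its windows, mostly with Tubg2, its near-identical paralog. Values for Tubb3, Tubb5 and Tubb6 therefore rest almost wholly on sequence of their own, while those of Tuba1a, Tuba1b, Tuba1c, Tubb2a, Tubb2b and Tubb4b depend on how the quantifier divided shared reads and are uncertain for the single gene.

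**Figure D1:**
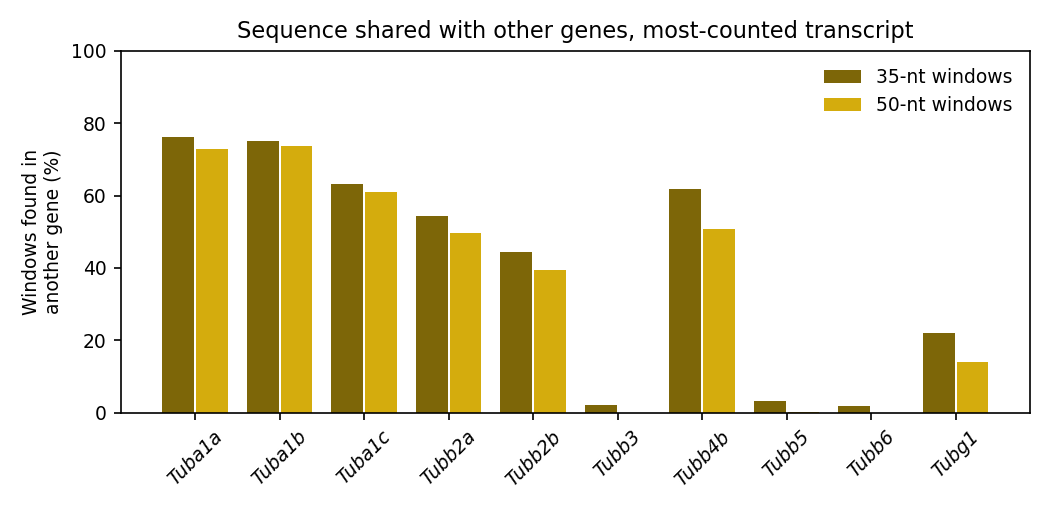
Share of all windows of 35 nt (dark) and 50 nt (light) in the most-counted transcript of each tubulin gene that also occur in a transcript of another gene, in percent. The α-tubulin genes stand at 63.2% to 76.1% for 35-nt windows, whereas Tubb3, Tubb5 and Tubb6 stand at 3.17% or less.

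Total counts were 25184464 to 29857955 in Input, 5312526 to 6246110 in p-UPF1 IP and 79010 to 474491 in rIgG IP libraries. The 10 most-counted transcripts held 81.4% to 82.3% of the counts in Input, 76.8% to 78.9% in p-UPF1 IP and 78.2% to 80.9% in rIgG IP libraries. Values scaled by the library total therefore depend largely on these transcripts. A gene reaches 3 counts at 0.100 to 0.119 CPM (counts scaled to the library total) in Input, 0.480 to 0.565 CPM in p-UPF1 IP and 6.32 to 38.0 CPM in rIgG IP libraries, limits that allow for counting error alone. Phox2a, Hand2 and Gata2, transcription factors of the sympathetic lineage from which neuroblastoma arises, had 233 to 405 counts in every Input library, while the noradrenergic enzyme genes Th and Dbh were low, at 17 to 23 and 3 to 13. Of 15 neuroblastoma and neuronal markers, 12 had more than 3 counts in every Input library, while the neurofilament genes Nefl and Nefm had at most 1. The 5 glial markers summed to 38 to 54 Input counts, with Gfap, Aqp4 and Mog at 3 or fewer, and the 5 fibroblast and immune markers to 22 to 27, with Col1a1, Col3a1, Ptprc and Cd68 at 2 or fewer.

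The tubulin genes together took less of the p-UPF1 IP than of the input. Their summed counts were 12923, 11657 and 14118 in Input, 991, 1200 and 1238 in p-UPF1 IP, and 185, 99 and 32 in rIgG IP libraries. Scaled by the library total this was 477 ± 17.3 CPM in Input, 426 ± 49.7 CPM in rIgG IP and 195 ± 6.95 CPM in p-UPF1 IP (SD, n = 3 each). The p-UPF1 IP libraries lay below all Input and rIgG IP libraries, whereas the rIgG IP range, 390 to 483 CPM, overlapped the Input range, 463 to 497 CPM.

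The order of the genes by level was not the same in the input and the p-UPF1 IP. For the α-tubulin genes, Tubb2a, Tubb2b and Tubb4b, levels and places depend on how shared reads were divided. Per kilobase of transcript (CPM per kb, scaled by TMM over the 9 libraries and by the count-weighted transcript length), Tuba1a had the highest level in Input, 87.6 ± 2.44, followed by Tubb5 at 64.8 ± 0.71 and Tuba1b at 59.2 ± 11.8, the latter pair with overlapping libraries. Below them came Tubb3 at 34.6 ± 2.06, Tubb4b at 22.8 ± 1.09, Tubb2a at 14.7 ± 1.49 and Tubb2b at 11.2 ± 0.49, which did not overlap one another. Tubg1 at 7.35 ± 0.64 and Tuba1c at 7.21 ± 0.20 overlapped, and Tubb6 was lowest at 4.33 ± 0.21 (SD, n = 3 throughout). In p-UPF1 IP libraries Tubb5 led with 31.5 ± 2.58 CPM per kb, Tubb3 at 15.2 ± 1.49 and Tubb4b at 15.2 ± 3.95 overlapped, and Tuba1a had moved from the first place to the sixth at 5.52 ± 0.98. Tubb6 had moved from the tenth place to the fifth at 7.43 ± 1.04, and its libraries overlapped those of no neighbour in the order, Tuba1b (9.61 ± 0.53) or Tuba1a. Tubg1 (4.33 ± 0.69) overlapped both Tuba1a above it and Tubb2a (4.10 ± 0.55) below it, and Tubb2b and Tuba1c stood last at 3.02 ± 0.30 and 1.98 ± 0.42. In rIgG IP libraries Tuba1a was highest on the same scale, at 56.6 ± 4.54, with Tubb5 at 47.7 ± 22.2.

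Of the 10 genes, 9 were lower in the p-UPF1 IP than in Input and 1, Tubb6, was higher (edgeR's quasi-likelihood test on counts summed per gene, two-sided, Benjamini-Hochberg adjusted p under 0.05). Over all 16919 genes tested, 35.7% were lower and 26.3% higher. By the study's threshold for increased immunoprecipitation, a log2 fold change above 1, none of the 10 was enriched, against 17.3% of all genes, and 7 were depleted by its mirror, a log2 fold change below -1, against 26.5%. The study used that threshold on transcripts with DESeq2, whereas here it was applied to summed gene counts with edgeR. The median log2 fold change was -1.54 over the members and -0.42 over all genes, and values relative to the latter are given below. The median of all genes moved with the scaling and the filter. It was -0.01 with library totals, -0.11 with a stricter filter (filterByExpr) and -1.42 with no filter. The relative values are those of the main fit and move with it. In 9 genes every p-UPF1 IP library lay below every Input library, which held for 42.1% of all genes, and in Tubb6 every one lay above, which held for 28.0%.

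**Figure D2:**
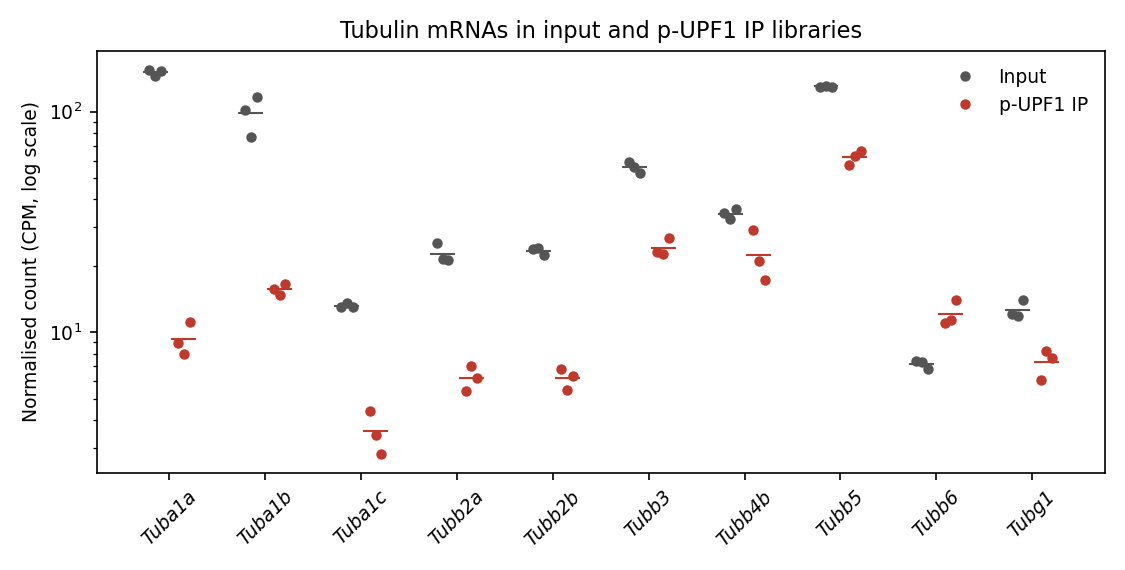
Normalised count (CPM, TMM scaling, log axis) of each tubulin gene in the 3 Input (grey) and 3 p-UPF1 IP (red) libraries, with horizontal lines at the means. Tuba1a shows the widest gap, with means of 151 and 9.36 CPM, and Tubb6 is the gene whose p-UPF1 IP libraries sit above the Input ones, at 11.0 to 14.0 against 6.83 to 7.44 CPM.

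Tuba1a and Tuba1b showed the largest depletion of the 10 genes as the table assigns their reads. Tuba1a had 3557, 3263 and 3825 counts in Input but only 53, 58 and 79 in p-UPF1 IP libraries. Its level was 151 ± 4.87 CPM in Input and 9.36 ± 1.62 CPM in p-UPF1 IP (SD, n = 3 each), a 16.1-fold difference (log2 fold change -4.01 ± 0.11, SE; adjusted p = 1.30e-09). The groups were far apart, yet 10.9% of all genes tested had a still lower fold change. Tuba1b, an α-tubulin of dividing cells as well as neurons, was counted 2346, 1725 and 2910 times in Input and 93, 108 and 117 times in p-UPF1 IP libraries. It was 6.29-fold lower in p-UPF1 IP (log2 fold change -2.65 ± 0.15; adjusted p = 1.80e-07), although its Input libraries varied more, with 98.6 ± 20.1 CPM. Tuba1c, the least counted of the α-tubulin genes, went from 300, 303 and 324 counts to 26, 25 and 20, with a log2 fold change of -1.91 ± 0.14 (adjusted p = 9.38e-07).

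Among the β-tubulin genes the fold changes ranged from a 3.79-fold depletion to a 1.69-fold increase. Tubb2a and Tubb2b lie close to each other on chromosome 13 and encode nearly the same protein. Tubb2b was counted 546, 541 and 559 times in Input and 40, 40 and 45 times in p-UPF1 IP libraries, and Tubb2a had 584, 481 and 532 against 32, 51 and 44. Their log2 fold changes, -1.92 ± 0.10 (adjusted p = 8.60e-08) and -1.86 ± 0.12 (adjusted p = 4.66e-07), were within their errors of each other and of Tuba1c.

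Tubb3 and Tubb5 carry almost no shared sequence and were also lower. Tubb3 went from 1363, 1254 and 1318 counts in Input to 136, 165 and 189 in p-UPF1 IP libraries, or 56.1 ± 3.17 against 24.1 ± 2.20 CPM. Tubb5, a widely expressed β-tubulin, went from 2983, 2932 and 3230 counts in Input to 338, 457 and 469 in p-UPF1 IP libraries, or 130 ± 0.72 against 62.1 ± 4.44 CPM. These are 2.32-fold and 2.09-fold differences, with log2 fold changes of -1.22 ± 0.09 (adjusted p = 8.39e-07) and -1.07 ± 0.07 (adjusted p = 5.07e-07). Tubb5 stood close to the limit for depletion: without p-UPF1 IP replicate 1 its log2 fold change was -0.97 and 6 instead of 7 genes were depleted.

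Tubb4b and Tubg1 were nearest to the median of all genes in the main fit. Tubb4b, another β-tubulin made in most tissues, was counted 795, 728 and 901 times in Input and 172, 153 and 122 times in p-UPF1 IP libraries. Its p-UPF1 IP values ran from 17.2 to 29.2 CPM (SD 6.11), the widest spread of the 10 genes in that group. Its log2 fold change was -0.63 ± 0.15 (adjusted p = 0.00425), or -0.21 relative to the median of all genes. Scaled by library totals it was -0.22 (adjusted p = 0.203), and 8 genes were then called lower. Tubg1 went from 278, 266 and 349 counts in Input to 36, 60 and 54 in p-UPF1 IP libraries, with a log2 fold change of -0.78 ± 0.13 (adjusted p = 3.81e-04).

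Tubb6, a β-tubulin that is scarce in these cells, was the exception. Its counts were 171, 164 and 170 in Input and 65, 83 and 99 in p-UPF1 IP libraries, from libraries of lower depth. This gave 7.20 ± 0.32 against 12.1 ± 1.60 CPM (SD, n = 3 each), a 1.69-fold increase (log2 fold change 0.76 ± 0.11, SE; adjusted p = 2.13e-04). Relative to the median of all genes in the main fit the increase was 1.17 on the log2 scale, and 75.7% of all genes had a lower fold change. Scaled by library totals the log2 fold change was 1.16, past the study's threshold, and 1 gene was then enriched and 5 depleted.

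Ordered by fold change, some neighbours lay within 2 SE of the difference and others lay further apart. Tuba1a stood below Tuba1b by 1.36 on the log2 scale, 7.19 times the SE of the difference when both estimates are taken as independent, and Tuba1b stood below Tubb2b by 0.73, 3.94 times its SE. These SEs cover the spread between libraries, not the division of shared reads. Steps that involve the α-tubulin genes, Tubb2a, Tubb2b or Tubb4b are therefore uncertain for the single genes. The steps from Tubb2b to Tuba1c and from Tuba1c to Tubb2a were under 0.05. Tubb2a and Tubb3 were separated by 0.65, 4.27 times the SE of the difference. From Tubb3 through Tubb5 and Tubg1 to Tubb4b each step was under 2 SE. The step from Tubb4b to Tubb6 was 1.39, 7.36 times its SE. In terms of composition, as the table assigns reads, Tuba1a made up 27.5% ± 0.45 of all tubulin counts in Input and 5.52% ± 0.79 in p-UPF1 IP libraries (SD, n = 3 each). Tubb5 made up 23.7% and 36.7%, and Tubb6 1.31% and 7.16%.

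**Figure D3:**
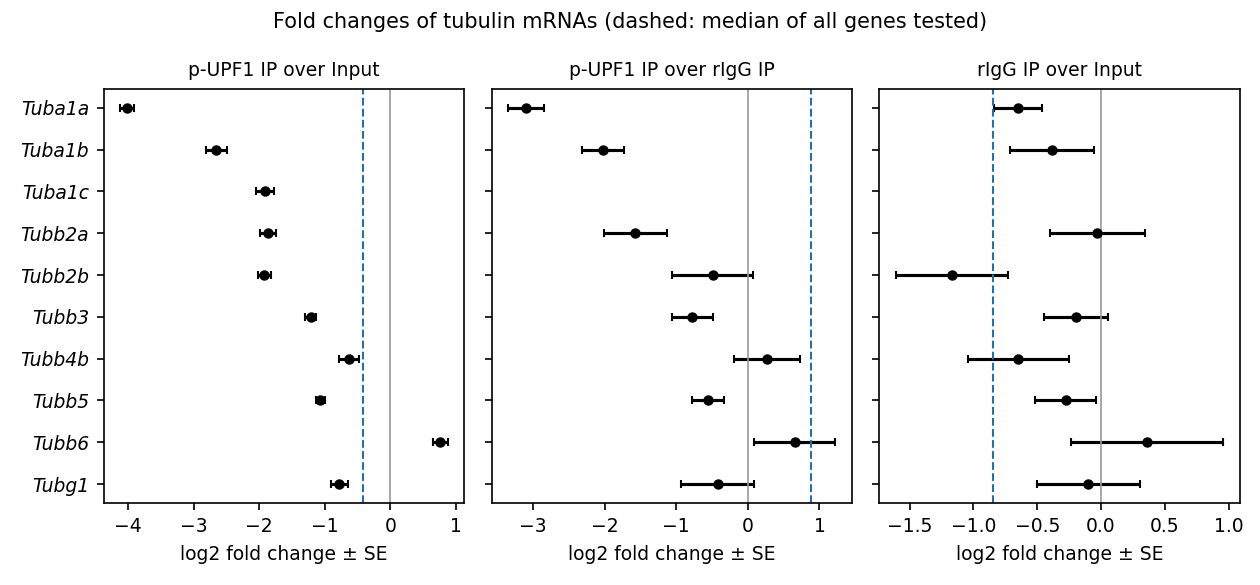
log2 fold change of each tubulin gene in the 3 comparisons, with bars of 1 SE; the dashed line is the median of all genes tested (-0.42, 0.89 and -0.84) and the solid line is 0. In p-UPF1 IP over Input only Tubb6 lies above 0; Tuba1c is not drawn against rIgG IP, where no library had more than 3 counts of it.

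Because reads from near-identical genes can be divided in more than one way, the counts were also summed. Tuba1a, Tuba1b and Tuba1c together were counted 6203, 5291 and 7059 times in Input and 172, 191 and 216 times in p-UPF1 IP libraries. Their sum was 263 ± 24.2 CPM in Input and 28.6 ± 2.17 CPM in p-UPF1 IP, a 9.20-fold difference (log2 fold change -3.20 ± 0.10; adjusted p = 2.31e-09). The sum of Tubb2a and Tubb2b was 46.2 ± 2.73 CPM in Input and 12.4 ± 0.18 CPM in p-UPF1 IP (log2 fold change -1.89 ± 0.08; adjusted p = 2.67e-08), nearly the values of either gene alone.

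The α-tubulin reads were further divided with similar genes outside the 10 members, most of them processed pseudogenes. In 7 other genes at least 50% of the 35-nt windows occur in Tuba1a, Tuba1b or Tuba1c: the processed pseudogenes Gm14150, Gm3226, Gm3756 and Gm17383, the annotated coding gene Gm49450, and Gm5620 and Gm6682, which had at most 11 counts in any library. This set was formed after the values had been seen. Gm3756 had 10, 3 and 0 counts in Input but 56, 108 and 73 in p-UPF1 IP libraries, and Gm14150 went from 1164, 1357 and 1163 to 5, 25 and 132. Gm49450 had 0, 317 and 0 counts in the Input libraries.

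Together the 7 genes took 19.0% ± 5.66 of the pooled α-tubulin counts in Input and 54.4% ± 3.58 in p-UPF1 IP libraries (SD, n = 3 each), while Tuba1a took 46.6% ± 1.25 and 14.8% ± 1.48 and Tuba1b 30.3% ± 5.45 and 25.0% ± 1.66. With them the pool was 325 ± 9.28 CPM in Input and 62.9 ± 5.87 CPM in p-UPF1 IP. The difference was then 5.15-fold (log2 fold change -2.37 ± 0.08; adjusted p = 4.72e-09), in place of 9.20-fold without them and 16.1-fold for Tuba1a alone. The direction was the same in every version, with the 3 Input libraries at 317 to 335 CPM and the 3 p-UPF1 IP libraries at 58.6 to 69.6 CPM. Tubb4b shares its sequence with the processed pseudogene Tubb4b-ps1, which was counted 0, 0 and 1 times in Input and 0, 26 and 73 times in p-UPF1 IP libraries. Their sum was 34.4 ± 1.88 CPM in Input and 27.1 ± 2.32 CPM in p-UPF1 IP (log2 fold change -0.35 ± 0.09; adjusted p = 0.00514), with less spread between p-UPF1 IP libraries than Tubb4b alone.

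**Figure D4:**
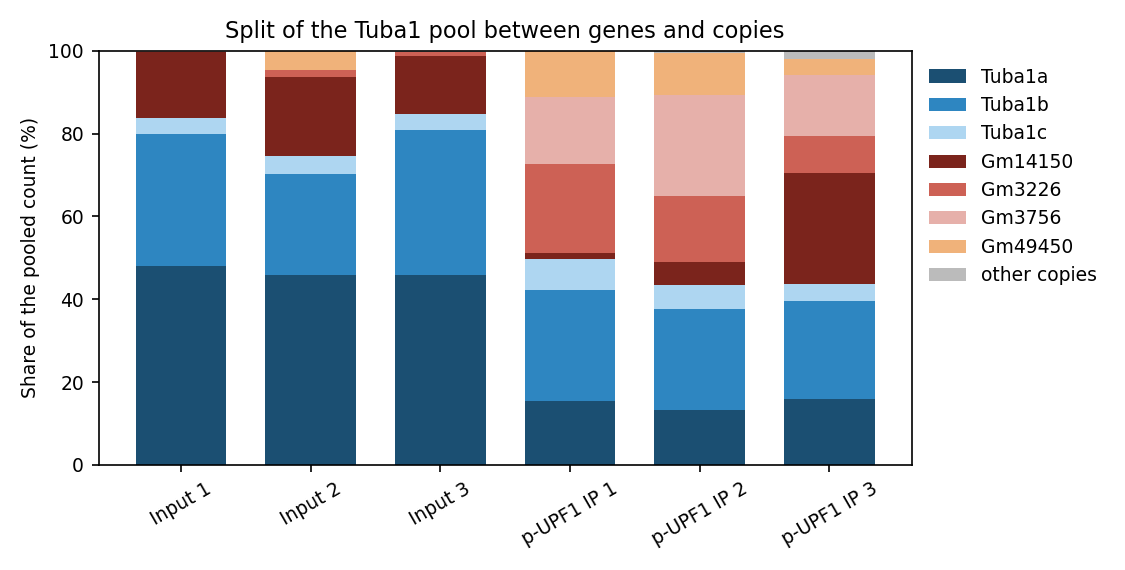
Division of the pooled counts of Tuba1a, Tuba1b, Tuba1c (blue) and 7 genes that share at least 50% of their 35-nt windows with them (other colours) in each Input and p-UPF1 IP library, in percent of the pool. The 7 other genes hold 19.0% of the pool on average in Input and 54.4% in p-UPF1 IP libraries.

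By transcript, 17 of the 20 rows were tested, and 10 were depleted and none enriched in the p-UPF1 IP, against 16.2% depleted and 8.55% enriched among all 42616 transcripts tested (same test on transcript counts). At this level the median log2 fold change was -1.51 over the 17 rows and -0.95 over all transcripts. The main coding transcript of Tubb6, ENSMUST00000001513.7, had a log2 fold change of 0.37 ± 0.14 (adjusted p = 0.104) and did not pass. Retained-intron transcripts had values on both sides of 0. That of Tuba1b, ENSMUST00000140969.1, was at 0.60 ± 0.28 CPM in Input and 1.91 ± 0.31 CPM in p-UPF1 IP (log2 fold change 1.65 ± 0.51; adjusted p = 0.0655), which did not pass, and that of Tubb5, ENSMUST00000173253.1, was at 42.8 ± 1.63 and 15.0 ± 2.39 CPM (log2 fold change -1.51 ± 0.14; adjusted p = 0.00126). In Tubb4b the coding transcript ENSMUST00000043584.4 was depleted (log2 fold change -1.08 ± 0.25; adjusted p = 0.0263), whereas a processed transcript without a coding sequence, ENSMUST00000145607.1, did not pass, with a log2 fold change of 1.08 ± 0.35 (adjusted p = 0.0753). The shorter coding transcript of Tubb3, ENSMUST00000212743.1, was at 10.5 ± 9.27 CPM in Input and 5.46 ± 1.52 CPM in p-UPF1 IP (adjusted p = 0.670), its Input spread being almost as large as its mean.

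Against the rIgG IP, 4 of the 10 genes were lower in the p-UPF1 IP and none was higher, while 5.59% of the 12033 genes tested were lower and 17.9% higher (same test). DESeq2 called no member higher either, and both members above 0 with enough counts for a fold, Tubb4b and Tubb6, had an unadjusted p of 0.570 and 0.260. These comparisons share the p-UPF1 IP libraries with those above, and the rIgG IP libraries hold few counts, with TMM factors that ran from 0.83 to 1.5 among them, so fold changes against them depend on the scaling. Tuba1a had 37, 23 and 13 counts in rIgG IP libraries, or 104 ± 8.44 CPM, against 11.8 ± 2.00 CPM in p-UPF1 IP (SD, n = 3 each; log2 fold change -3.09 ± 0.25, SE; adjusted p = 1.26e-09). Its groups did not overlap. Tuba1b had 36, 21 and 2 counts in rIgG IP libraries and a log2 fold change of -2.02 ± 0.29 (adjusted p = 1.01e-05), with the third library overlapping the p-UPF1 IP range.

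Tubb2a and Tubb3 passed more narrowly. Tubb2a, with 8, 8 and 1 rIgG IP counts, had a log2 fold change of -1.57 ± 0.44 (adjusted p = 0.0110). Without rIgG IP replicate 2 its value was -1.22 (adjusted p = 0.135). Tubb3, with 25, 9 and 4 rIgG IP counts, was at -0.77 ± 0.28 (adjusted p = 0.0477). It lost its call without rIgG IP replicate 1 (-0.37, adjusted p = 0.586), p-UPF1 IP replicate 1 (-0.75, adjusted p = 0.0635) or p-UPF1 IP replicate 2 (-0.75, adjusted p = 0.0798), although its groups, 28.5 to 33.4 against 33.9 to 63.7 CPM, did not overlap. Groups that did not overlap, with the p-UPF1 IP below, were found in Tuba1a and Tubb3 among the members and in 5.48% of all genes.

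Tubb5, with 55, 24 and 6 rIgG IP counts, had a log2 fold change of -0.55 ± 0.22 (adjusted p = 0.0762). Without rIgG IP replicate 3, the library with 79010 counts in total, it was -0.81 (adjusted p = 0.00916), and without rIgG IP replicate 1 it was -0.20 (adjusted p = 0.655). Tubb2b at -0.49 ± 0.57, Tubg1 at -0.42 ± 0.51, Tubb4b at 0.27 ± 0.46 and Tubb6 at 0.66 ± 0.57 did not pass, with adjusted p of 0.541, 0.569, 0.697 and 0.426. Tubb6 had only 1, 5 and 1 counts in rIgG IP libraries, and its value was -0.23 relative to the median of all genes. Tuba1c had 0, 0 and 3 counts there, and no fold is given. The summed Tuba1a, Tuba1b and Tuba1c, at 181 ± 26.6 CPM in rIgG IP and 36.0 ± 2.73 CPM in p-UPF1 IP, differed by -2.36 ± 0.19 on the log2 scale (adjusted p = 6.13e-10), and by -1.97 ± 0.19 (adjusted p = 1.40e-08) with the 7 similar genes added. The summed Tubb2a and Tubb2b were at -1.13 ± 0.36 (adjusted p = 0.0222). All genes tested had a median log2 fold change of 0.89 here, and the members -0.52.

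Between the rIgG IP and Input, none of the 10 genes passed, and of the 16280 genes tested 0.584% were higher and 0.313% lower in edgeR's test; DESeq2 called none of the 10 either. At an unadjusted p under 0.05 there were Tuba1a (log2 fold change -0.65 ± 0.19, adjusted p = 0.183) and Tubb2b (-1.17 ± 0.44, adjusted p = 0.301). The median was -0.33 over the members and -0.84 over all genes. Without rIgG IP replicate 3, which held all 3 of its rIgG IP counts, Tuba1c was called lower, and 1 gene passed.

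Genes that act with tubulin were read from the same fit of p-UPF1 IP over Input. Their lists were drawn up by function, with earlier results of these data known. Of 10 other tubulin genes 5 were tested, and 2 were higher and none lower (26.3% and 35.7% of all genes): Tubg2, the second γ-tubulin, with 1.74 ± 0.27 CPM in Input and 3.54 ± 0.16 CPM in p-UPF1 IP (log2 fold change 1.02 ± 0.21; adjusted p = 0.00179), and Tube1, the centriolar ε-tubulin, with 1.01 ± 0.08 and 3.11 ± 0.39 CPM (1.61 ± 0.24; adjusted p = 2.13e-04). Tubg1 and Tubg2 share reads, and Tubg2 had 36 to 45 Input counts. The median of the 5 was -0.29.

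The folding machinery of tubulin comprises prefoldin, the chaperonin CCT and the tubulin cofactors. Of its 21 genes 15 were lower and 3 higher (35.7% and 26.3% of all genes), with a median log2 fold change of -1.28. Tcp1 and Cct8, subunits of CCT, were lower by log2 fold changes of -2.38 ± 0.08 and -2.35 ± 0.08 and Cct7 by -2.10 ± 0.09, and the prefoldin subunit Vbp1 was at -2.46 ± 0.18. Tcp1 went from 119 ± 6.06 CPM in Input to 22.9 ± 1.16 CPM in p-UPF1 IP. These values lay between those of Tubb2b and Tuba1b.

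Of 12 genes of tubulin mRNA autoregulation 8 were lower and 2 higher (35.7% and 26.3% of all genes), with a median of -0.94. The calls named by size were Cnot7 (-2.16 ± 0.11), Cnot6l (-1.67 ± 0.11), Cnot8 (-1.50 ± 0.20) and Cnot11 (-1.23 ± 0.12). Every gene of the list but Ttc5 and Scaper is a CCR4-NOT subunit, and so are the 2 higher genes. Ttc5 and Scaper did not pass, at -0.29 ± 0.20 (adjusted p = 0.226) and -0.39 ± 0.18 (adjusted p = 0.0848). Their p-UPF1 IP counts were low, with 18, 18 and 17 for Ttc5 and 26, 27 and 28 for Scaper.

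The remaining lists had medians above that of all genes. Of 11 genes of the γ-tubulin ring complex and its anchors 5 were higher and 2 lower (26.3% and 35.7% of all genes), with a median of 0.28. Pcnt, which anchors the complex at the centrosome, was at 1.71 ± 0.10, the complex members Tubgcp6 and Mzt1 at 1.42 ± 0.14 and 1.42 ± 0.10, and Mzt2 at -3.16 ± 0.43 with 48, 54 and 58 counts in Input and 3, 1 and 1 in p-UPF1 IP libraries. Of 22 tubulin-modifying genes 18 were tested, and 7 were higher and 3 lower (26.3% and 35.7% of all genes), with a median of 0.19. Ttl, the ligase that restores the last tyrosine of α-tubulin, rose most among the list's named genes, from 7.23 ± 0.39 to 40.8 ± 3.92 CPM (2.49 ± 0.10; adjusted p = 9.89e-09), and Vash1, which removes that residue, was at 1.46 ± 0.12. The ligases Ttll3 and Ttll5 were at 1.95 ± 0.30 and 1.29 ± 0.14.

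**Figure D5:**
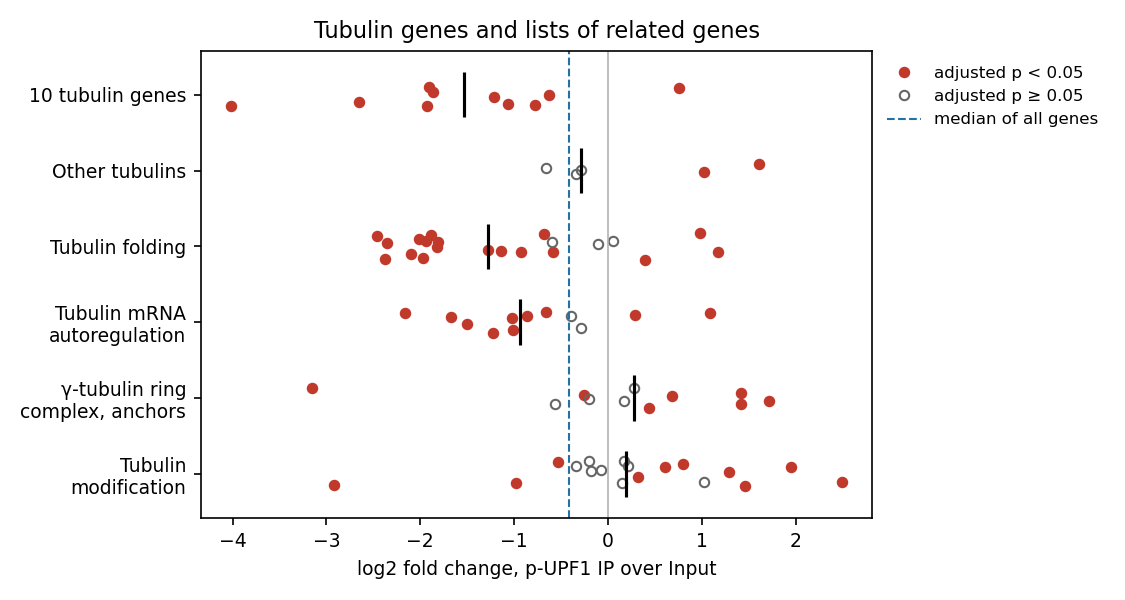
log2 fold change in p-UPF1 IP over Input of the 10 tubulin genes and of the tested genes of each related list; filled points passed at adjusted p under 0.05, black bars are list medians and the dashed line is the median of all genes (-0.42). The tubulin genes and the folding list have medians of -1.54 and -1.28, and the modification and γ-tubulin ring complex lists of 0.19 and 0.28.

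The genes whose profile over the 9 libraries was most like that of the summed tubulin count were sought among 798 genes with at least 3 counts in every library, by Euclidean distance of log2(CPM + 0.5) values centred per gene. They were Gars (distance 0.32), encoding glycyl-tRNA synthetase, Ldha (0.35), encoding lactate dehydrogenase A, D10Wsu102e (0.37), Zdbf2 (0.42) and Vdac1 (0.48), a channel of the outer mitochondrial membrane. The tubulin sum was at 574 ± 23.6 CPM in Input, 397 ± 121 in rIgG IP and 180 ± 6.27 in p-UPF1 IP libraries. Gars was at 148 ± 4.37, 88.9 ± 21.5 and 42.6 ± 3.29 CPM in the same order. The requirement for counts in the shallow rIgG IP libraries limited the candidates to abundant genes.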

How the data were processed

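RIP-seq libraries of N2A cells (3 each of Input, rIgG IP and p-UPF1 IP) were used as deposited. The authors demultiplexed reads with bcl2fastq, trimmed them with FastP, used STAR for mapping on GRCm38, and estimated transcript abundance by Salmon. The submitters' processing notes give bcl2fastq 2.19.0, STAR 2.7.0f and Salmon 0.13.1, which differ in part from the versions that the methods of the study name. The authors' deposited table holds Salmon's estimated count for every transcript in each library, given in whole numbers and without scaling. Salmon divides reads shared by similar transcripts by a model, so values of near-identical genes depend on that division.

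Counts were summed per gene symbol. For each pair of groups, edgeR 4.0.16 in R 4.3.3 was run on the 6 libraries concerned (TMM factors, quasi-likelihood test, two-sided, summed count of at least 10, Benjamini-Hochberg adjustment over all genes). The SE of a log2 fold change was taken from it and its F statistic. CPM values are TMM-scaled unless a share of the total is named. Windows, exons and coding starts came from GENCODE M21 on GRCm38, which matched 139921 transcripts. Scripts were tested on simulated data with known changes. As alternatives, the fit was repeated with library totals or RLE factors for scaling, DESeq2 1.42.0, filterByExpr, no filter, all 9 libraries in 1 fit, the replicate number as a block, sums over paralogs, and leaving out each library. The sum with similar genes was chosen after seeing the data.

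Members and lists were chosen with earlier results of these data known. All 10 members are named. From each list up to 4 genes are named, those with the largest absolute log2 fold change in p-UPF1 IP over Input among genes with adjusted p under 0.05 and at least 10 counts in every Input library. Ttc5, Scaper, the similar genes and the transcripts described are outside this rule and were chosen after their values were seen, as were the markers named.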

Additional observations from a re-analysis of the deposited data

How the results depend on the processing

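In p-UPF1 IP over Input, Tubb6 was higher in every alternative run on counts summed per gene. On transcript counts its main coding transcript did not pass (edgeR's quasi-likelihood test, adjusted p = 0.104). In all of the gene-level runs but library totals, which gave 8, 9 genes were lower. With library totals the median of all genes went from -0.42 to -0.01, and 1 gene, Tubb6, was enriched and 5 were depleted. That median was -0.11 with filterByExpr, which left 12178 genes, and -1.42 with no filter, which left 30801. Values relative to it shift accordingly. No member's fold change turned its sign in this comparison. In p-UPF1 IP over rIgG IP, 2 genes were lower with the replicate block, and leaving out single libraries gave 3 to 5. The labels do not say that replicate numbers pair the libraries, and deviations of same-numbered libraries were hardly correlated (mean r = 0.028, -0.020 and -0.011 in the 3 comparisons), so the block was kept out of the main test. Under it Tubb2a (adjusted p = 0.0663), Tubb3 (0.339) and the summed Tubb2a and Tubb2b (0.158) lost their calls against rIgG IP, as did the coding transcripts of Tubb4b (0.0855) and Tubg1 (0.0730) over Input, and no other gene call of the 10 changed. Tubb3 also just missed the threshold with no filter, and Tubb5 passed with DESeq2, RLE factors, library totals, filterByExpr and all 9 libraries (adjusted p from 0.00267 to 0.0272). Leaving out single libraries gave 0 to 1 lower gene in rIgG IP over Input.

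Several genes without a call changed sign. Over rIgG IP, Tubb4b had -0.0075 with RLE factors and -0.086 with filterByExpr. Leaving out single libraries gave -0.84 to 0.37 for Tubb2b, -0.083 to 1.21 for Tubb4b and -0.24 to 1.88 for Tubb6.

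In rIgG IP over Input, DESeq2, RLE factors and library totals gave 0.26, 0.26 and 0.19 for Tubb2a, 0.11, 0.093 and 0.033 for Tubb3, and 0.18, 0.19 and 0.12 for Tubg1. Tubb5 had 0.053 with DESeq2 and 0.015 with RLE factors, and Tubb2a 0.030 with filterByExpr. Leaving out single libraries gave -0.46 to 0.17 for Tubb2a, -0.96 to 1.25 for Tubb6 and -0.23 to 0.18 for Tubg1. The cause was not tested. Under these 3 scalings the median of all genes ran from -0.63 to 0.25 here and from 0.25 to 0.82 in p-UPF1 IP over rIgG IP. The rIgG IP libraries, with 32 to 185 tubulin counts each, limit both comparisons that use them.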
